A study of Mus musculus with 6 samples.

Results

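Excitatory synapses of the mouse brain are built on the postsynaptic density, a protein layer under the receiving membrane. In it, Dlg scaffolds hold glutamate receptors, Dlgap proteins bind the Dlg scaffolds to Shank, and Shank is tied to Homer and through it to metabotropic receptors and internal calcium stores. Calcium that enters the spine activates CaMKII, protein kinase C and the phosphatase calcineurin, and the kinase cascade to the nucleus reaches the transcription factor Creb1. The set described here holds 32 genes of these groups, taken by symbol from a list of scaffold, kinase, phosphatase and spine regulator genes. All 32 had a row among the 43346 rows of the deposited count table, and all 32 were among the 15030 genes that passed the expression filter and were tested.

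RNA-seq libraries were made from the brains of 3 Kdm6a deficient and 3 wild type mice, which were littermates. All 6 were adult males of strain C57BL/6 from a cross of females carrying the Kdm6a-LoxP allele with Thy1-Cre males. Thy1 is a promoter used for expression in neurons, so glia and vessels of a deficient brain may keep the intact gene. Which cells had recombined, and whether the wild type mice carried Cre or a floxed allele, is not given in the labels. The labels name separate mice and say nothing of brain regions, so each library stands for a mixture of neurons and glia, and fewer cells of a type and less RNA per cell cannot be told apart.

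Kdm6a, a histone demethylase encoded on the X chromosome, served as the check of the labels. It averaged 24.2 ± 1.68 CPM (counts scaled to library size) in deficient mice, against 34.6 ± 0.370 CPM in wild type mice (SD, n = 3 each), or 70.1% of the wild type mean (log2 fold change -0.51, SE 0.07, edgeR adjusted p = 0.00780). Libraries held 18542590 to 24531408 counts, and each of the 32 genes had 799 to 75131 counts in every library. Together the 32 genes took 1.42%, 1.38% and 1.34% of the counts in deficient mice 1, 2 and 3, against 1.45%, 1.40% and 1.43% in wild type mice 1, 2 and 3. Neuron markers were present in every library, with summed levels of 8928 to 9219 CPM over 10 genes in deficient mice, against 9096 to 9147 CPM in wild type mice.

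No gene of the set passed the 5% false discovery rate in edgeR's quasi-likelihood test, where 0.0466% of all genes tested passed in either direction, 0.0333% as lower and 0.0133% as higher in deficient mice. The smallest adjusted p of the 32 was 0.582, for Sipa1l1. At an unadjusted p under 0.05, 5 of the 32 were lower in deficient mice, against 3.30% of all genes tested, and 0 were higher, against 2.56%. DESeq2 and limma-voom gave 0 past the false discovery rate, where 0.141% and 0.0333% of the genes given an adjusted p passed. Each had the same 5 genes (Homer2, Camk2g, Ppp1r9b, Sipa1l1 and Cnksr2) lower at an unadjusted p under 0.05, against 1.67% of all genes in DESeq2, which kept genes of low count, and 3.39% in limma-voom. The edgeR count was 8 when genes of low count were kept (3.15% of all genes) and 7 with the mouse numbers as a replicate block (3.61%). It was 4 with an offset for transcript length and GC content (2.91%) and 4 with the block and that offset (3.23%). Without deficient mouse 1, 2 or 3 it was 8 (3.22%), 4 (2.78%) and 4 (3.80%). Without wild type mouse 1, 2 or 3 it was 3 (2.35%), 6 (3.19%) and 6 (4.96%). None of the 32 had an adjusted p under 0.05 in the authors' deposited table, while 18 genes in all did.

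The fold changes were small and mostly of 1 sign. The log2 fold change, deficient over wild type, was negative for 29 of the 32 genes, while 49.2% of all genes tested were negative. Its median was -0.06 over the 32 genes and 0.00 over all genes tested, with a range of -0.18 for Homer1 to 0.10 for Homer3. The estimate lay within 1 SE of 0 for 14 genes. In the authors' deposited table, whose fold changes are wild type over deficient, 29 of the 32 were positive. The genes share the same 6 libraries, so their signs are not independent of each other.

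These transcripts are longer than most. Their median transcript length was 4868 bases, against 3044 bases over all genes tested, and their median GC content was 52.4%, against 50.5%. With an offset that removes each library's trend with transcript length and GC content, 22 of the 32 were negative, where 47.9% of all genes were, and the median was -0.03. Shank2 had a log2 fold change of 0.03 under that offset and -0.03 without it.

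**Figure D1:**
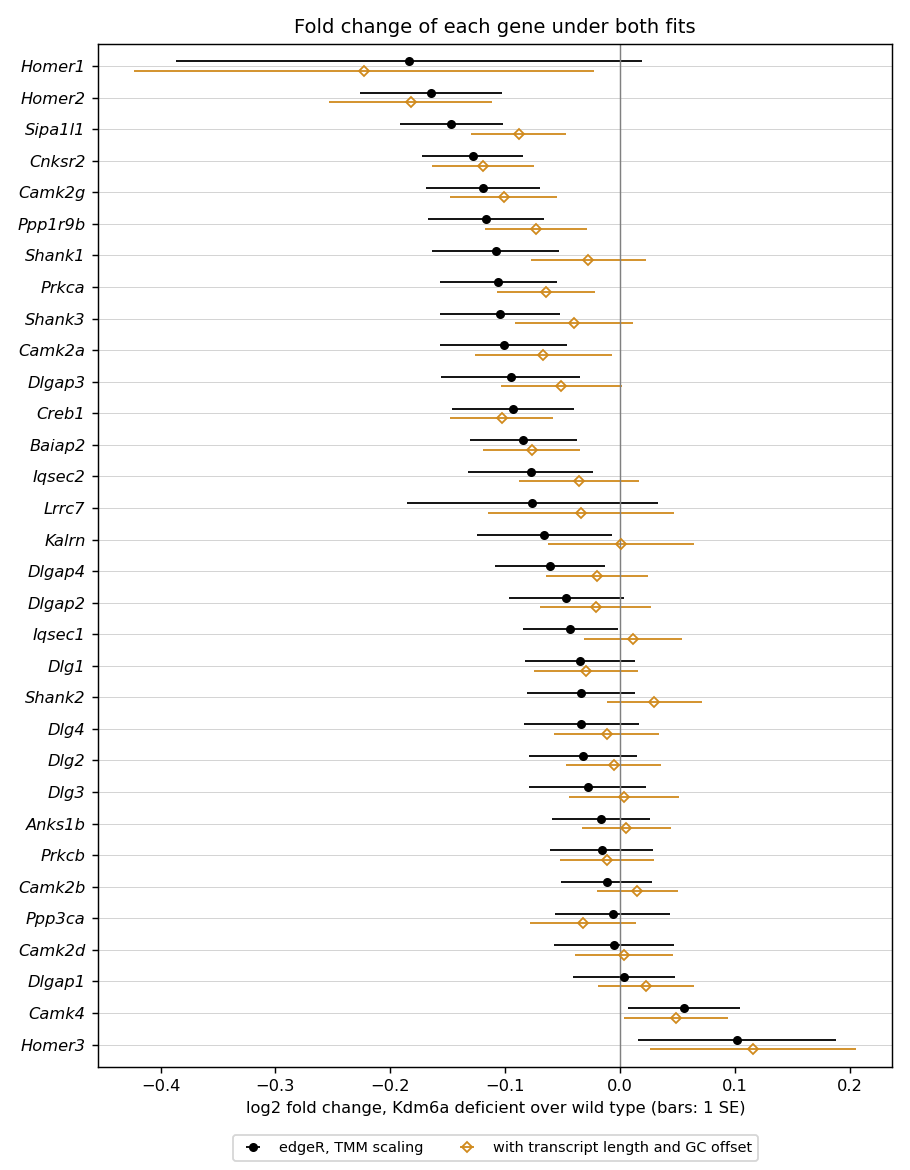
Log2 fold change of each of the 32 genes, Kdm6a deficient over wild type (n = 3 mice each), with bars of 1 SE, from edgeR with TMM scaling (black circles) and with the added offset for transcript length and GC content (open orange diamonds). The black points run from -0.18 for Homer1 to 0.10 for Homer3, and 29 lie left of 0, against 22 of the orange points.

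The mice did not contribute equally. The median of the 32 genes, as log2 CPM minus each gene's wild type mean, stood at -0.02, -0.04 and -0.10 in deficient mice 1, 2 and 3, against 0.03, -0.00 and -0.02 in wild type mice 1, 2 and 3. Deficient mouse 3 had the lowest of the 6 values for 20 of the 32 genes, against 16.4% of all genes tested, and wild type mouse 1 had the highest for 16, against 17.6%. Deficient mouse 1 lay about level with wild type mouse 3. Without deficient mouse 3 the median fold change was -0.03.

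**Figure D2:**
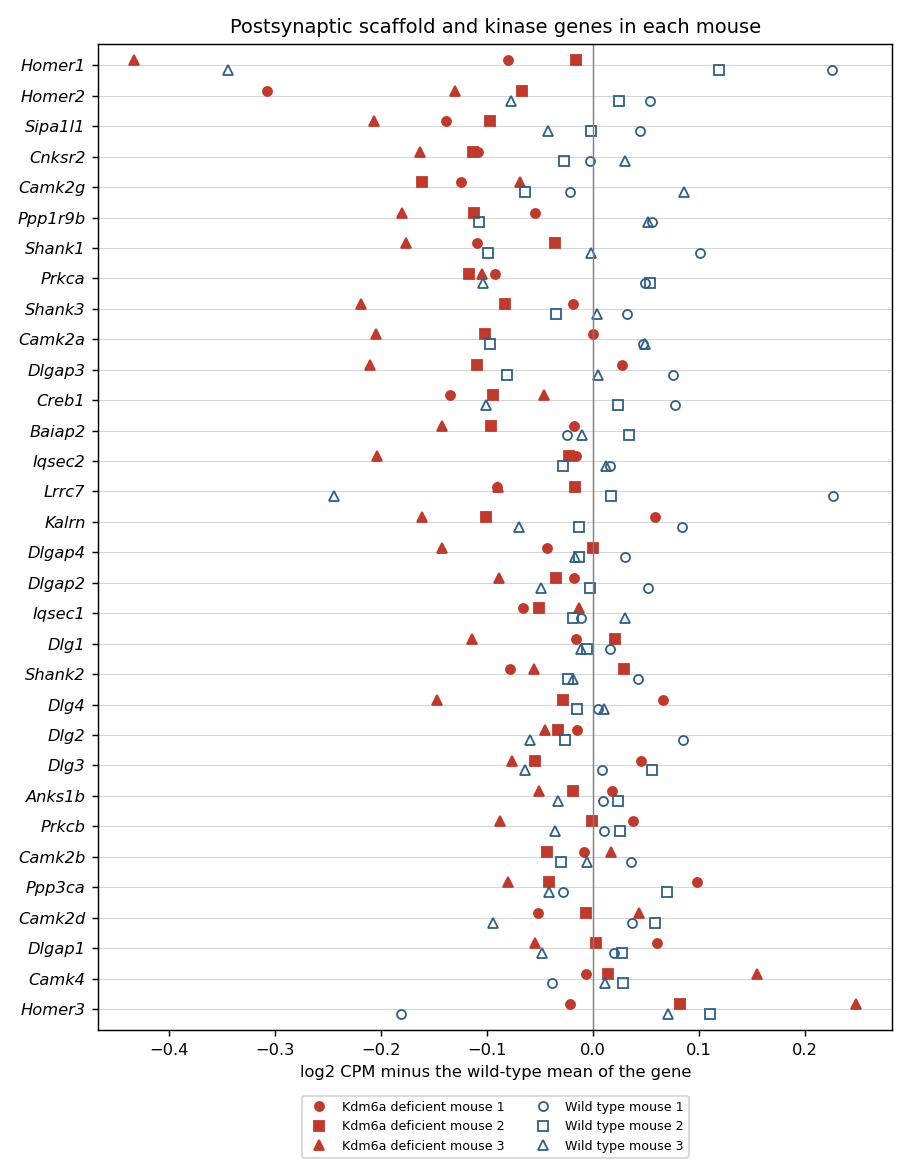
Level of each of the 32 genes in each mouse, as log2 CPM minus that gene's wild type mean, with deficient mice as filled red and wild type mice as open blue symbols, ordered by fold change from most negative at the top. Most triangles of deficient mouse 3 lie at the left edge of their row (20 of 32 are the lowest of the 6), and the groups separate fully for Sipa1l1, Cnksr2 and Camk2g alone.

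The Dlg genes encode scaffolds with PDZ domains that hold NMDA and AMPA receptor complexes at the synapse. Dlg4, which encodes PSD-95, had 787, 737 and 679 CPM in deficient mice 1, 2 and 3, against 755, 744 and 758 CPM in wild type mice 1, 2 and 3. Deficient mice 1 and 3 held the highest and the lowest value, so the wild type range lay inside the deficient one. Its log2 fold change was -0.03 (SE 0.05, edgeR adjusted p = 0.963), and 0.02 without deficient mouse 3. The fold changes of Dlg1, Dlg2 and Dlg3 were -0.04, -0.03 and -0.03, each with an SE of 0.05, and their groups overlapped. Dlg3 is on the X chromosome, as Kdm6a is. Exons of Dlg2 overlap those of 2 predicted genes on the same strand, so its count may not be of Dlg2 alone.

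Dlgap proteins bind the guanylate kinase domain of Dlg scaffolds on one side and Shank on the other. Dlgap1 had 544, 523 and 502 CPM in deficient mice, against 529, 532 and 505 CPM in wild type mice. The groups spanned nearly the same range, and the log2 fold change was 0.00 (SE 0.04, edgeR adjusted p = 0.996). Dlgap3, known for compulsive grooming in mice that lack it, had a fold change of -0.10 (SE 0.06), Dlgap4 of -0.06 (SE 0.05) and Dlgap2 of -0.05 (SE 0.05), with overlapping groups.

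Shank genes encode large scaffolds that join the Dlgap layer to Homer and the actin skeleton, and human SHANK3 is linked to autism. Shank3 had 309, 296 and 269 CPM in deficient mice, against 320.1, 306 and 314 CPM in wild type mice. Deficient mice 2 and 3 lay below all wild type mice, and deficient mouse 1 lay within their range. Its log2 fold change was -0.10 (SE 0.05, edgeR adjusted p = 0.861). Shank1 had 339, 357 and 324 CPM in deficient mice, against 393, 342 and 366 CPM in wild type mice. Deficient mice 1 and 3 lay below the lowest wild type mouse and deficient mouse 2 above it, and the log2 fold change was -0.11 (SE 0.06, edgeR adjusted p = 0.861). Both moved toward 0 with the length and GC offset, to -0.04 for Shank3 and -0.03 for Shank1. Their transcripts have 7131 and 9826 bases and a GC content of 61.7% and 61.4%, in that order. The medians of the 32 genes are 4868 bases and 52.4%. Whether length or GC content moved these fold changes was not tested. Shank2 had a fold change of -0.03 (SE 0.05) without the offset.

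Homer proteins bind Shank and group I metabotropic glutamate receptors, and the Homer1 gene also makes Homer1a, a short form induced by neuronal activity that uncouples these contacts. Gene counts do not separate the forms. Homer1 had 205, 214 and 160.2 CPM in deficient mice, against 253, 235 and 170.3 CPM in wild type mice. Mouse 3 was the lowest of each group, and wild type mouse 3 lay below deficient mice 1 and 2. At -0.18, its log2 fold change was the most negative of the set, with the largest SE, 0.20 (edgeR adjusted p = 0.941). With the mouse numbers as a replicate block it was -0.18 (SE 0.05, edgeR adjusted p = 0.409). With the length and GC offset added to the block it was -0.22 (SE 0.05, edgeR adjusted p = 0.106). The numbers are not shown to pair the mice. The within-group SD of Homer1 was 0.27 on the log2 scale, against a median of 0.07 over the 32 genes and 0.10 over all genes tested.

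Homer2 had 67.5, 79.7 and 76.3 CPM in deficient mice, against 86.7, 84.9 and 79.1 CPM in wild type mice. Deficient mouse 1 was the lowest and deficient mouse 2 lay just above wild type mouse 3. The log2 fold change was -0.16 (SE 0.06, edgeR adjusted p = 0.771), and without any 1 mouse it ran from -0.22 to -0.10. Homer3, which is abundant in cerebellar Purkinje cells, had 39.6, 42.5 and 47.7 CPM in deficient mice, against 35.5, 43.4 and 42.2 CPM in wild type mice. Its values overlapped, with a fold change of 0.10 (SE 0.09), the most positive of the set.

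Creb1 binds the cAMP response element, and the promoters of the set were searched for it; Homer1 had the most matches. RefSeq promoter windows on GRCm38.p6 were available for 25 of the 32 genes, with 44 windows in all. The full element TGACGTCA was in 0 of these 44 windows, counting the 250 bases before the start, and in 1.55% of all 32851 windows. Its 5-letter core TGACG, searched on both strands (as TGACG or CGTCA, each of which the full element holds), was in 5 of the 44 (11.4%) and in 17.8% of all windows. Windows with 3 or more matches were 0.688% of all, and among the 44 only a Homer1 window had as many. The 250 bases before each Homer1 start with a RefSeq window are shown, because 1 of these starts has matches and the other has none. They lie on chr13:93303507-93303756 and chr13:93307784-93308033 of the plus strand. The GENCODE gene begins further upstream, at chr13:93299635, and no window for that start was among the 44. Capitals mark TGACG, whose first base lies 56, 40 and 14 bases before the more upstream of the starts shown.
Homer1 upstream start: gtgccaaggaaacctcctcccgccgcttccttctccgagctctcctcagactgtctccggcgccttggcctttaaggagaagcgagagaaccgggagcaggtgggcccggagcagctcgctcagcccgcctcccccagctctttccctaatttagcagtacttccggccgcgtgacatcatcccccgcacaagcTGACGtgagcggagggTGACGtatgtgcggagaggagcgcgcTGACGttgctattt
Homer1 downstream start: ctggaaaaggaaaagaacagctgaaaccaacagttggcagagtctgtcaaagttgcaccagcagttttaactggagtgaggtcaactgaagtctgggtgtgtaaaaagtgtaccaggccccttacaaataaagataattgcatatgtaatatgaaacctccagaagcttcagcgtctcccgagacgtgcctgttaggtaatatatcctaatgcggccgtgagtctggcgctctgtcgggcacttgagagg
A match describes these letters only, and no binding was measured in these mice.

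The CaMKII kinase is built from subunits of 4 genes, of which Camk2a and Camk2b are the main neuronal ones. Camk2a had 3038, 2830.2 and 2636 CPM in deficient mice, against 3138, 2840.1 and 3143 CPM in wild type mice. Deficient mice 2 and 3 lay below every wild type mouse, mouse 2 by a small step, and deficient mouse 1 lay within the wild type range. The log2 fold change was -0.10 (SE 0.06, edgeR adjusted p = 0.885). Camk2g, a more widely expressed subunit on chr14:20734875-20794088, had 292, 285 and 304 CPM in deficient mice, against 314, 305 and 338 CPM in wild type mice. Every deficient mouse lay below every wild type mouse, though deficient mouse 3 and wild type mouse 2 nearly met. Its log2 fold change was -0.12 (SE 0.05, edgeR adjusted p = 0.798). Camk2b and Camk2d had fold changes of -0.01 each (SE 0.04 and 0.05), with overlapping groups.

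Full separation of the groups, with all deficient mice lower, occurred for 3 of the 32 genes, Camk2g, Sipa1l1 and Cnksr2, and for 5.49% of all genes tested. The opposite separation occurred for 0 of the 32 and for 5.70% of all genes.

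Camk4, the calmodulin kinase that phosphorylates Creb1 in the nucleus, had a fold change of 0.06 (SE 0.05) and levels of 442, 448 and 494 CPM in deficient mice, against 432, 452 and 447 CPM in wild type mice. Its groups overlapped, with deficient mouse 3 the highest of the 6. Creb1 itself had a fold change of -0.09 (SE 0.05). Prkca, a conventional protein kinase C activated by calcium and diacylglycerol, had 187, 184 and 186 CPM in deficient mice, against 207, 207 and 186 CPM in wild type mice. Wild type mouse 3 lay within the deficient range, and the log2 fold change was -0.11 (SE 0.05, edgeR adjusted p = 0.856). Prkcb, another conventional isoform, had a fold change of -0.02 (SE 0.04).

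Of the phosphatase genes, Ppp1r9b encodes spinophilin, which brings protein phosphatase 1 to spines. It had 923, 888 and 846 CPM in deficient mice, against 997, 890.5 and 994 CPM in wild type mice. Wild type mouse 2 lay at the level of the deficient mice and the other wild type mice above all of them, and the log2 fold change was -0.12 (SE 0.05, edgeR adjusted p = 0.812). Ppp3ca, a catalytic subunit of calcineurin, had a fold change of -0.01 (SE 0.05) and overlapping groups.

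The remaining 8 genes are regulators of small GTPases in spines and adaptors of the postsynaptic scaffold. All 8 had negative fold changes, from -0.15 to -0.02, where 49.2% of all genes tested were negative. With the length and GC offset Iqsec1 (0.011), Kalrn (0.00088) and Anks1b (0.0053) were positive, and 47.9% of all genes were negative. Sipa1l1, a Rap GTPase-activating protein of spines on chr12:82169320-82451786, had 372, 383 and 355 CPM in deficient mice, against 422, 409 and 398 CPM in wild type mice. Every deficient mouse was lower than every wild type mouse. The log2 fold change was -0.15 (SE 0.05, edgeR adjusted p = 0.582), -0.17 to -0.12 without any 1 mouse, and -0.09 with the length and GC offset. Cnksr2, a scaffold of the postsynaptic density on chrX:157821436-158043294, had 226, 225 and 217 CPM in deficient mice, against 243, 239 and 249 CPM in wild type mice. These groups were separate too, with little spread in either, and the log2 fold change was -0.13 (SE 0.04, edgeR adjusted p = 0.704) and -0.12 with the offset.

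Baiap2, which links Rac and Cdc42 to actin and binds PSD-95 and Shank, had 276, 262 and 253 CPM in deficient mice, against 275, 286 and 278 CPM in wild type mice. Deficient mouse 1 lay within the wild type range and the other deficient mice below it, and the log2 fold change was -0.08 (SE 0.05, edgeR adjusted p = 0.885). The Arf exchange factors Iqsec1 and Iqsec2 had fold changes of -0.04 and -0.08 (SE 0.04 and 0.05). Kalrn, a Rac exchange factor, had -0.07 (SE 0.06). Lrrc7, which encodes densin and binds CaMKII, had -0.08 with an SE of 0.11. Anks1b, a binding partner of PSD-95, had -0.02 (SE 0.04).

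Counting was by gene, and the sources used here do not give the strand setting. Exons of Dlgap1, Shank1, Shank3, Homer2, Homer3, Camk4, Iqsec1 and Lrrc7 overlap a gene on the opposite strand, so reads of both may be in those counts.

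Set per kilobase of the principal transcript, levels spanned 74.7-fold. Ppp3ca was highest at 628 ± 41.2 CPM per kb in deficient mice, against 631 ± 26.8 in wild type mice (SD, n = 3 each), and Camk2a followed at 570.3 ± 40.4 in deficient mice, against 612 ± 34.9 in wild type mice. The ranges of these leading genes overlapped. Camk2b, Dlg4 and Ppp1r9b came next with means over all 6 mice of 231, 213 and 205 CPM per kb, then Camk4 and Prkcb with 167 and 159.6. Baiap2 had 113 and Dlgap1 99.0 CPM per kb. The lowest were Homer3 with 16.03, Creb1 with 15.8, Dlgap2 with 14.6 and Lrrc7 with 8.42. Of 31 pairs of neighbours in this order, 21 had overlapping ranges over the mice. The order depends on the transcript chosen: with all exons of a gene counted as its length, 8 genes moved by more than 5 places, among them Homer2 (place 17 to 32) and Homer1 (place 13 to 27). The first place also changed hands, with Camk2a at 519 and Ppp3ca at 288 CPM per kb of all exons.

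**Figure D3:**
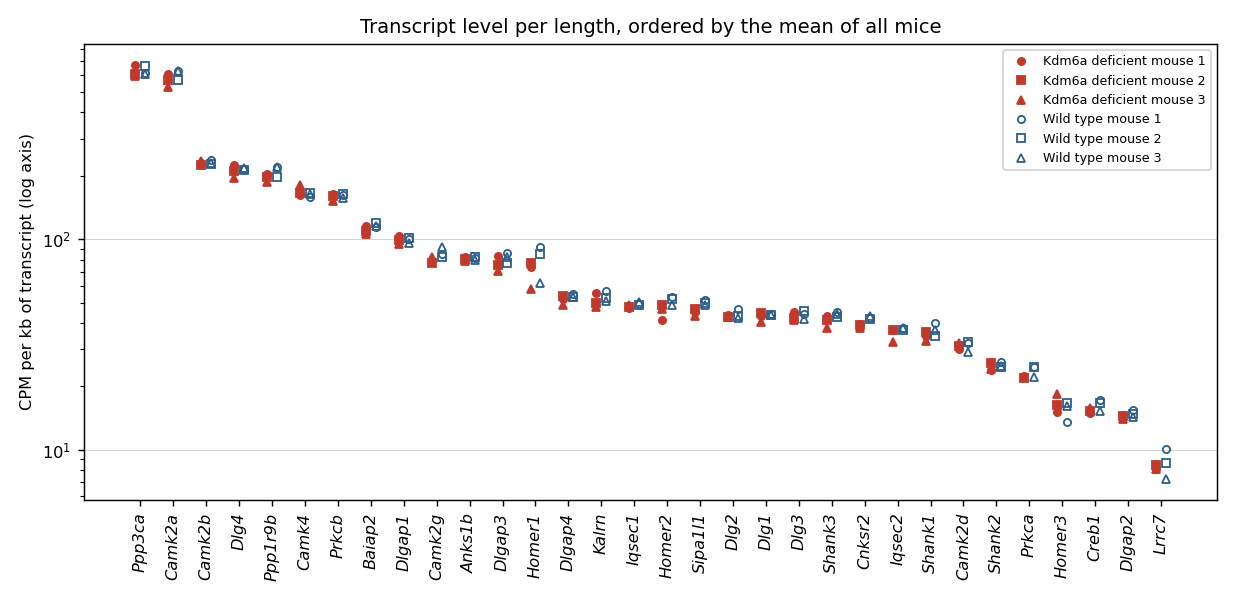
CPM per kb of principal transcript (log axis) for each of the 32 genes in each of the 6 mice, ordered by the mean over all mice, with deficient mice as filled red and wild type mice as open blue symbols. Ppp3ca and Camk2a stand well above the rest (means of 629 and 591 CPM per kb), and Homer1 has the widest spread between mice among genes of its level.

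The make-up of each family, which does not depend on library scaling, overlapped between the groups for all members. Dlg4 made up 62.1% ± 1.06 of Dlg transcripts in deficient mice, against 62.1% ± 0.787 in wild type mice (SD, n = 3 each). Camk2a made up 62.5% ± 2.04 of the Camk2 family in deficient mice, against 63.6% ± 0.927 in wild type mice, and Camk2b 25.3% ± 1.26 of it in deficient mice, against 24.2% ± 0.696 in wild type mice. Dlgap1 made up 41.1% ± 0.535 of its family in deficient mice, against 39.7% ± 1.10 in wild type mice, and Shank3 40.8% ± 1.56 of its family in deficient mice, against 41.3% ± 0.686 in wild type mice. The exact two-sided permutation p over the 6 mice was 0.2 to 1.0 for the 18 shares, and the smallest that 3 mice against 3 allow is 0.1.

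The Homer family varied most from mouse to mouse. Homer1 made up 56.7%, 54.3% and 47.1% of it in deficient mice 1, 2 and 3, against 57.8%, 55.3% and 48.8% in wild type mice 1, 2 and 3. Mouse 3 was thus the lowest of each group, and within each number the genotypes lay close together. Homer3 made up 12.7% ± 1.93 of it in deficient mice, against 10.8% ± 2.11 in wild type mice (exact permutation p = 0.4). Lengths taken over all exons change these shares strongly (Homer3 37.2% and Homer2 17.9% over all mice, against 11.7% and 34.9% with the principal transcript). The annotated exons of Homer2 add up to 11168 bases, and its principal transcript has 1634. The Dlg4 share over all mice was 37.3% with all exons, against 62.1%.

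**Figure D4:**
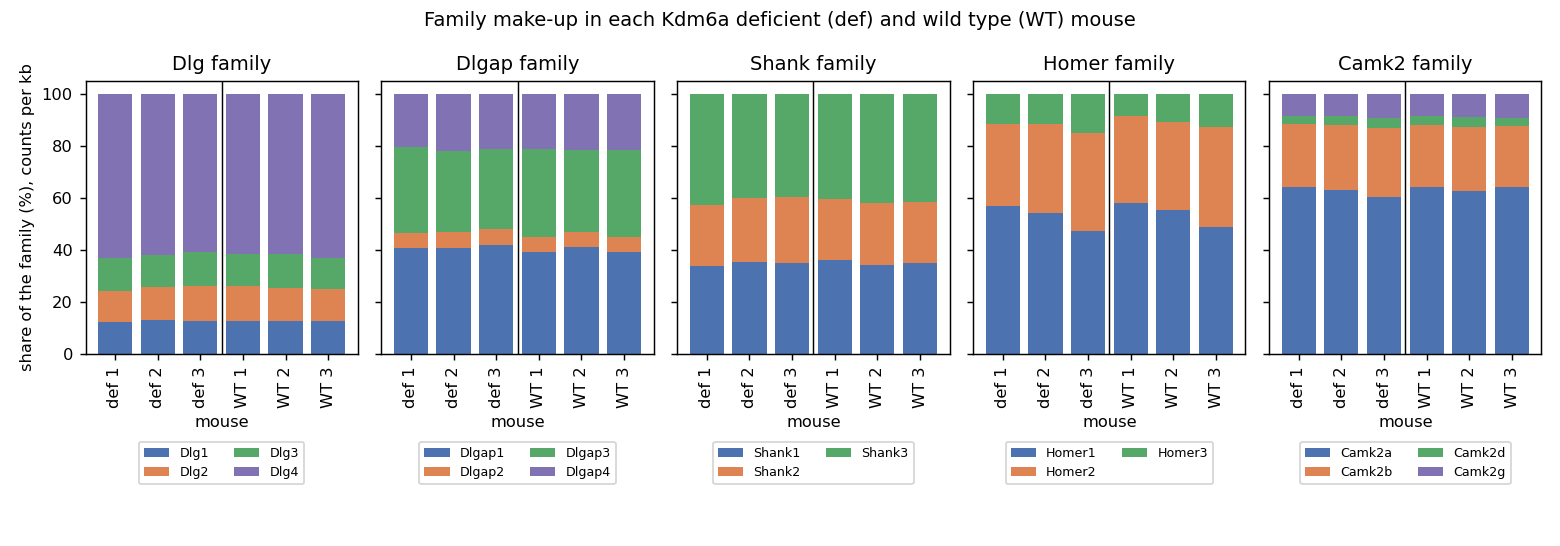
Share of each gene in its family (percent of counts per kb of principal transcript) in each mouse, with deficient mice (def) left of the line and wild type mice (WT) right of it. Dlg4 and Camk2a hold over 60% of their families in every mouse, and the Homer1 share is lowest in mouse 3 of each group (47.1% and 48.8%).

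Related genes outside the set were read from 6 lists of 95 genes, of which 93 were tested. None of the 93 passed the false discovery rate in edgeR, DESeq2 or limma-voom. Of all genes given an adjusted p, 0.0466%, 0.141% and 0.0333% passed in the same order of tools. Neither the related genes nor the marker lists below were read with the length and GC offset. The log2 fold change was negative for 69 of the 93, against 49.2% of all genes tested. At an unadjusted p under 0.05, 10 were lower in deficient mice in edgeR (3.30% of all genes), 10 in DESeq2 (1.67%) and 9 in limma-voom (3.39%). With each tool 1 was higher, against 2.56%, 0.772% and 2.56% of all genes in the same order of tools. The list of calmodulin genes and other CaM kinases also held calmodulin-binding proteins, CaMKII inhibitors and a Ras exchange factor. Of its 15 genes 12 were negative, with a median of -0.09. It had 6 at an unadjusted edgeR p under 0.05, where 5.86% of all genes tested had such a p in either direction. Dapk1, a calmodulin-regulated death-associated kinase, had 122, 116 and 120 CPM in deficient mice, against 139, 135 and 132 CPM in wild type mice, fully separate (log2 fold change -0.19, SE 0.05, edgeR adjusted p = 0.419). Camk2n1, an inhibitor of CaMKII, had 1588, 1426 and 1381 CPM in deficient mice, against 1696, 1612 and 1659 CPM in wild type mice, also separate (-0.18, SE 0.05, edgeR adjusted p = 0.534).

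Among other scaffolds, 22 of 26 were negative, against 49.2% of all genes tested, with a median of -0.06. Iqsec3 and Magi3 had the smallest p of these scaffolds (fold changes of -0.12 and -0.13). The same 49.2% applies to each list below. Of 12 phosphatase genes 8 were negative, with a median of -0.02. Akap5, the anchor that holds calcineurin and protein kinase A at PSD-95, had -0.18 (SE 0.06, edgeR adjusted p = 0.639), and Rcan1, a calcineurin inhibitor, had -0.11. Of 13 other protein kinase C and A genes 10 were negative, with a median of -0.02, and Prkar2b, a regulatory subunit of protein kinase A, had -0.09 (SE 0.04, edgeR adjusted p = 0.856). In the Creb1 pathway 9 of 13 were negative with a median of -0.03, but the smallest p belonged to Rps6ka1, a kinase that can phosphorylate Creb1. It had 38.9, 41.5 and 42.5 CPM in deficient mice, against 29.7, 33.2 and 38.2 CPM in wild type mice, with every deficient mouse higher (log2 fold change 0.28, SE 0.08, edgeR adjusted p = 0.558). Ep300, a coactivator of Creb1, had -0.10. Glutamate receptor and partner genes had 8 of 14 negative, a median of -0.01, and Gria3 and Nlgn1 at 0.08 and 0.05.

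Markers of brain regions differed between mice beside these values. Over all genes tested, 49.2% were negative, which applies to each marker list below. Cerebellum markers had positive fold changes for 10 of 10 genes (median 0.21, none past the false discovery rate in edgeR, DESeq2 or limma-voom). At an unadjusted p under 0.05, 5 were higher in edgeR (2.56% of all genes), 5 in DESeq2 (0.772%) and 6 in limma-voom (2.56%). They had summed levels of 1074, 1260 and 1299 CPM in deficient mice, against 964, 1106 and 1109 CPM in wild type mice. Deficient mice 2 and 3 and wild type mouse 1 thus stood at the ends of this sum, and none of the 10 markers was at 0 in any mouse. Of the 32 genes, 2 (6.25%), Camk4 and Homer3, had their highest value in deficient mouse 3, against 17.1% of all genes tested. The same 2 (6.25%) had their lowest in wild type mouse 1, against 19.0% of all genes. Forebrain excitatory neuron markers summed to 1461, 1347 and 1284 CPM in deficient mice, against 1390.3, 1358 and 1331 CPM in wild type mice, with 5 of 8 negative and a median of -0.03. Striatal projection neuron markers summed to 867.9, 783 and 804 CPM in deficient mice, against 845, 857 and 799 CPM in wild type mice, with 6 of 7 negative and a median of -0.07. Of the remaining lists, oligodendrocyte (6 of 8), microglia (7 of 8), astrocyte (5 of 8) and choroid plexus markers (4 of 4) were mostly negative, neuron (5 of 10) and endothelial markers (3 of 6) were evenly divided, and 0 of 6 inhibitory neuron and 0 of 7 blood cell markers were negative. In deficient mouse 3, the mouse with the lowest values of the 32 genes, the oligodendrocyte median was -0.15 and the microglia median -0.18 against the wild type mean. These, the forebrain excitatory median (-0.14) and the neuron median (-0.03) were each the lowest of the 6 mice. Its inhibitory neuron (0.12) and cerebellum (0.31) medians were each the highest. Its astrocyte (-0.04) and striatal (-0.05) medians were negative but not the lowest. Choroid plexus (0.10), endothelial (0.06) and blood cell (0.30) medians were positive in it. The part of these markers in the values of the 32 genes was not tested.

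**Figure D5:**
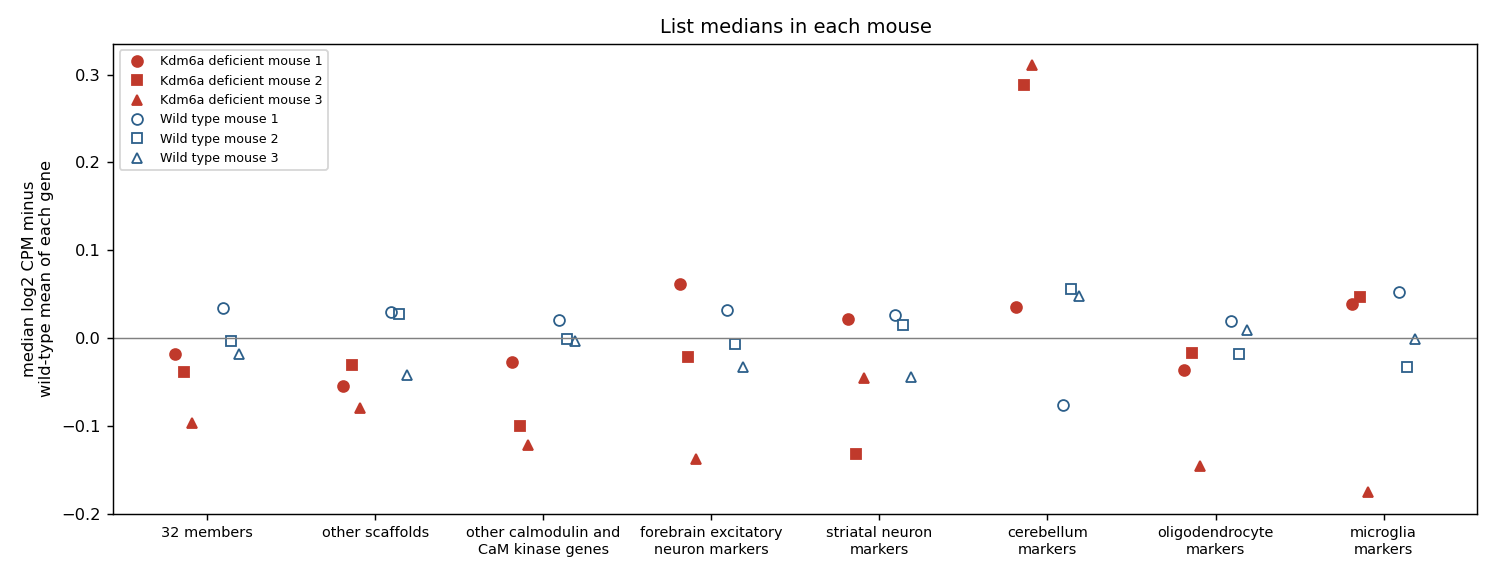
Median over each gene list of log2 CPM minus the gene's wild type mean, in each deficient (filled red) and wild type (open blue) mouse. Some related lists and the neuron, inhibitory neuron, astrocyte, endothelial, blood cell and choroid plexus markers are not drawn. The 32 genes are lowest in deficient mouse 3 (-0.10), where forebrain excitatory (-0.14), oligodendrocyte (-0.15) and microglia markers (-0.18) are also lowest and cerebellum markers highest (0.31).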

How the data were processed

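Brain RNA of 6 mice was sequenced as Illumina TruSeq libraries, per the labels' protocols. GRCm38 and DESeq2 are named in the submitters' processing notes. The aligner, the counter, the authors' annotation and the strand setting are not named in the sources used here. The authors deposited raw counts per gene symbol, with a different total in each library. Per the file headers, the same table holds the authors' DESeq2 results: a mean normalized signal, log2 fold change with its error (wild type over deficient), a score, a p-value and an adjusted p-value.

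Tests used the robust quasi-likelihood fit of edgeR 4.0.16 in R 4.3.3, on counts that passed its default expression filter, with TMM scaling and Benjamini-Hochberg adjustment over all genes tested at a threshold of 0.05. CPM uses TMM-scaled library sizes. The labels give no litter, batch or day, so no covariate was used. Of the alternatives, DESeq2 1.42.0 and limma 3.58.1 (voom) are other tools; RLE scaling, other expression filters, mouse numbers as blocks, an offset for transcript length and GC content (splines with 4 degrees of freedom, 99.0% of tested genes with values) and leaving out each mouse change 1 setting or a named pair. Code was tested on simulated data.

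Lengths and positions are from GENCODE M21 on GRCm38 (longest APPRIS principal transcript, otherwise longest basic); promoter windows of 300 bases are from RefSeq. No member had a near-identical copy elsewhere. Named genes are the 10 members with the smallest p, the highest member per kb of each of 5 families, and 2 genes of each related list by smallest p; Camk4 and Homer3 are given per mouse as the other positive members, chosen after their values were seen. A gene that this rule takes is not reported here, and counts include it. The members and lists were chosen with earlier results of these data known. Drd1 was matched under an older symbol, and Anks1a and Magi2 matched no row.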

Additional observations from a re-analysis of the deposited data

How the results depend on the processing

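None of the 32 genes passed the 5% false discovery rate under any of the alternatives tried, nor at 10%. The count over all genes was 7, with 25 when no low counts were filtered out, 20 with DESeq2, 15 with mouse numbers as a replicate block, 24 with the replicate block and the length and GC offset, and 3 to 17 without any 1 mouse. The numbers are not shown to pair the mice: deviations of same-numbered mice correlated at -0.00063, 0.081 and 0.048. Deficient mouse 1 correlated best with wild type mouse 3, at 0.075. Deficient mice 2 and 3 each correlated best with the wild type mouse of their own number. Between 22 and 30 of the 32 were negative. The median of the 32 was -0.029 with the length and GC offset, -0.028 with the replicate block and that offset, and -0.075 to -0.028 without any 1 mouse, nearest 0 without deficient mouse 3. With the offset the log2 fold change became positive for Dlg3 (0.0034), Shank2 (0.030), Camk2b (0.015), Camk2d (0.0034), Iqsec1 (0.011), Kalrn (0.00088) and Anks1b (0.0053). With the replicate block and the offset it was positive for Dlg3 (0.0026), Shank2 (0.029), Camk2b (0.015), Camk2d (0.0036), Iqsec1 (0.013) and Anks1b (0.0050). Leaving out 1 mouse gave both signs for Anks1b (-0.037 to 3.02e-05), Camk2b (-0.029 to 0.0061), Camk2d (-0.052 to 0.021), Dlg1 (-0.066 to 0.0025), Dlg2 (-0.063 to 0.011), Dlg4 (-0.089 to 0.019), Dlgap1 (-0.028 to 0.031), Lrrc7 (-0.19 to 0.046), Ppp3ca (-0.063 to 0.029) and Prkcb (-0.046 to 0.019). RLE scaling, DESeq2, limma-voom and both other filters turned no member's sign. Kdm6a had a log2 fold change of -0.51 without wild type mouse 2, with an edgeR adjusted p of 0.05001. The cause of these shifts was not tested. With 3 mice a group and a median SE of 0.05, none of the changes of the 32 genes passed after adjustment over all genes. The power to detect changes of this size was not tested.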
